A study of Mus musculus with 10 samples.

Results

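The replication-dependent histone genes are the genes that supply most of the histone protein for newly copied DNA. They were taken as every gene of the deposited count table whose GENCODE M21 symbol begins with Hist1h, Hist2h, Hist3h or Hist4h. The rule found 70 of the 52636 genes in the table: 6 of linker histone H1, 20 of H2A, 19 of H2B, 12 of H3 and 13 of H4. Annotation lists 67 of them as protein-coding and 3 as pseudogenes, namely Hist1h2aj, Hist1h2al and Hist3h2bb-ps. The genes of the Hist1, Hist2, Hist3 and Hist4 clusters lie on chromosomes 13, 3, 11 and 6 of mouse build mm10.

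The libraries are 10 bulk RNA samples of a mouse leukaemia named DIN, made by giving fetal liver cells retroviral NRAS G12D, IDH2 R140Q and DNMT3A R882H. The leukaemia was first grown in sub-lethally irradiated Ptprca mice, and cells kept frozen were passed into further Ptprca recipients, whose chow and water were either normal or held doxycycline, for 5 or 14 days. Doxycycline turns the DNMT3A R882H vector off and leaves the IDH2 R140Q and NRAS G12D vectors in every group. The 4 groups were day 14 off (with doxycycline, 4 libraries), day 14 on (normal chow, 2 libraries), day 5 off (2 libraries) and day 5 on (2 libraries). Each library came from cKit+/Cd11b- cells of marrow and spleen, isolated by sorting. The labels do not say which library was marrow or spleen, nor whether libraries were separate mice, so p-values here speak of library-to-library spread, which may be technical. No group received doxycycline without the vector, so effects of doxycycline itself and of the vector cannot be told apart. In bulk RNA, fewer cells that make a transcript and less of it per cell cannot be told apart either.

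Replication-dependent histone genes are switched on together as cells enter S phase. Core histones H2A, H2B, H3 and H4 form the nucleosome and H1 binds the DNA between nucleosomes. Their messenger RNAs usually end in a short stem-loop, bound by the protein Slbp, in place of a poly(A) tail, although some of the genes also make polyadenylated transcripts, often in cells that leave the cycle. The libraries were made from polyA RNA with a 3′ end kit, and so the values measure whatever part of each histone transcript that chemistry captured.

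The stem-loop was found by its consensus in the annotated transcripts of 46 of the 70 genes. It is shown because the 3′ end decides whether a histone transcript carries a tail that the kit can prime on. Capitals mark the 16-base stem-loop core, and the sites are written 5′ to 3′ on the strand of the gene, in mm10. In the order printed, they lie at chr13:21810893-21810918, plus strand, chr13:23576239-23576264, plus strand, chr13:23739507-23739532, plus strand, chr13:22036295-22036320, plus strand, chr13:23698084-23698109, minus strand, chr13:22040961-22040986, minus strand, and chr11:58949344-58949369, plus strand.
Hist1h2ao: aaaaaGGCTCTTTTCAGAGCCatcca
Hist1h3d: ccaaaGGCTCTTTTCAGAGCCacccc
Hist1h1c: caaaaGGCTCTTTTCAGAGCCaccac
Hist1h2bk: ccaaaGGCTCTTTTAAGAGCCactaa
Hist1h4c: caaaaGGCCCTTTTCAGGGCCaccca
Hist1h4i: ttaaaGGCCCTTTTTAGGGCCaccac
Hist3h2ba: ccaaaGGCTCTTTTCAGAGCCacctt

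The core of Hist1h2ao, Hist1h3d, Hist1h1c and Hist3h2ba was shared by 26 genes, and that of Hist1h4c by 7 genes, all of them H4. The core of Hist1h2bk was shared by 6 genes and that of Hist1h4i by 2 genes. The annotated transcript ran on for 31 bases past the site in Hist1h2ao, 30 in Hist1h2bk, 752 in Hist1h3d, 840 in Hist1h1c, 330 in Hist1h4i and 169 in Hist3h2ba. A poly(A) signal (AATAAA, or the common variant spelled ATTAAA) followed the site in Hist1h1c, Hist1h4i and Hist3h2ba, and was not found after it in Hist1h2ao, Hist1h2bk or Hist1h3d.

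Promoter windows from RefSeq (GRCm38.p6, 250 bases before to 50 after the start) were matched for 62 of the 70 genes. The windows shown are those of a called H2B gene, a called H4 gene and an H2B gene called in the other direction. Capitals mark letters that match, on either strand, the TATA box TATAAA, the promoter element known as CCAAT, the octamer written ATTTGCAT and, from a known H4 element, the letters GTCCG. The E2F-type motif spelled TTTGGCGC was searched as well. Matches were taken at any position in the window. The windows lie at chr13:22035571-22035870, plus strand (Hist1h2bk), chr13:22041313-22041612, minus strand (Hist1h4i) and chr11:58948661-58948960, plus strand (Hist3h2ba).
Hist1h2bk: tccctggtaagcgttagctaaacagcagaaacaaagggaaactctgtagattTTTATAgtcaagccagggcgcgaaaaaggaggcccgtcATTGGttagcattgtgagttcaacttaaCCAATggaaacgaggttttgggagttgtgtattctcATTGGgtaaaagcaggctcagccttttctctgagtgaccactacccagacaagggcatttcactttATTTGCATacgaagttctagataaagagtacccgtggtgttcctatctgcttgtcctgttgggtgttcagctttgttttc
Hist1h4i: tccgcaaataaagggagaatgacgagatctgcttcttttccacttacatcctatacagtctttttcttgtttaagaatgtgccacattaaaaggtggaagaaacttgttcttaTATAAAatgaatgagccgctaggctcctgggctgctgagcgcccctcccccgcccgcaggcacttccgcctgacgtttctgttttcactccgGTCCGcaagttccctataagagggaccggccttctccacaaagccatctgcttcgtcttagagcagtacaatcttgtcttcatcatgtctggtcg
Hist3h2ba: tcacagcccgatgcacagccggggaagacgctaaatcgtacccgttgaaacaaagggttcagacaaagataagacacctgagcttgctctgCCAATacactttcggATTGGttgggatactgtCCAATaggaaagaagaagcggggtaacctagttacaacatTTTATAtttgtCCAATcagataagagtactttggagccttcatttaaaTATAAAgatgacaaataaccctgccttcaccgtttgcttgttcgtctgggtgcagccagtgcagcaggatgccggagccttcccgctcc

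CCAAT was present in all 50 matched H1, H2A, H2B and H3 windows and in 3 of 12 H4 windows, against 37.4% of the 32851 windows of all genes. TATAAA was in 35 of 62 histone windows, against 13.6% of all. ATTTGCAT, the octamer known as a binding site of Oct-1, was in 7 of 18 H2A and 6 of 16 H2B windows and in none of the other types, against 1.74% of all. GTCCG was in 12 of 12 H4, 8 of 18 H2A, 5 of 16 H2B, 1 of 10 H3 and 0 of 6 H1 windows, against 23.4% of all. TTTGGCGC was in 0 of 62, against 0.514% of all. Hist1h2bk was called higher with the vector off than on at day 14, and Hist3h2ba lower. Both held the letters TATAAA, on either strand and at any position, and CCAAT. The octamer was found only in Hist1h2bk of the pair.

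The libraries held 9292644 to 14340624 counts each. The 70 genes took 0.141% to 0.151% of the counts in the day 14 off libraries, 0.0659% to 0.0776% in day 14 on, 0.0867% to 0.0941% in day 5 off and 0.101% to 0.121% in day 5 on. Their mean count per library ran from 0.3 to 2375 with a median of 54.0, and 18 genes averaged under 20 counts. A filter on low counts kept 66 genes, and Hist1h1t, Hist1h2aa, Hist1h2ba and Hist3h2bb-ps, each at or near 0 counts in every library, were not tested. Hist1h1t, Hist1h2aa and Hist1h2ba are known from testis. Dnmt3a, the mouse gene (whether reads of the vector's transcript were counted under it was not given), was at 32.3, 31.9, 35.6 and 39.2 CPM (counts scaled to library size, with TMM factors) in day 14 off, 55.9 and 73.6 CPM in day 14 on, 65.6 and 50.2 CPM in day 5 off, and 52.8 and 51.2 CPM in day 5 on. It was lower with the vector off at day 14 (edgeR adjusted p = 0.00186) and did not differ past the threshold at day 5 (adjusted p = 0.754).

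At day 14, with the vector off, 34 of the 66 tested histone genes were higher and 2 were lower than with it on (edgeR quasi-likelihood test, adjusted p under 0.05 over all 15916 tested genes). Across all tested genes 31.8% were called, 16.9% higher and 14.9% lower. The median log2 difference was 1.09 over the histone genes and 0.01 over all genes. By type, 13 of 19 tested H2A genes, 6 of 17 H2B, 6 of 12 H3, 7 of 13 H4 and 2 of 5 H1 were called higher, and the 2 lower ones were both H2B. In 45 of the 66 genes every day 14 off library lay above both day 14 on libraries, as in 27.9% of all tested genes, and in 2 every one lay below, as in 24.6% of all.

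**Figure D1:**
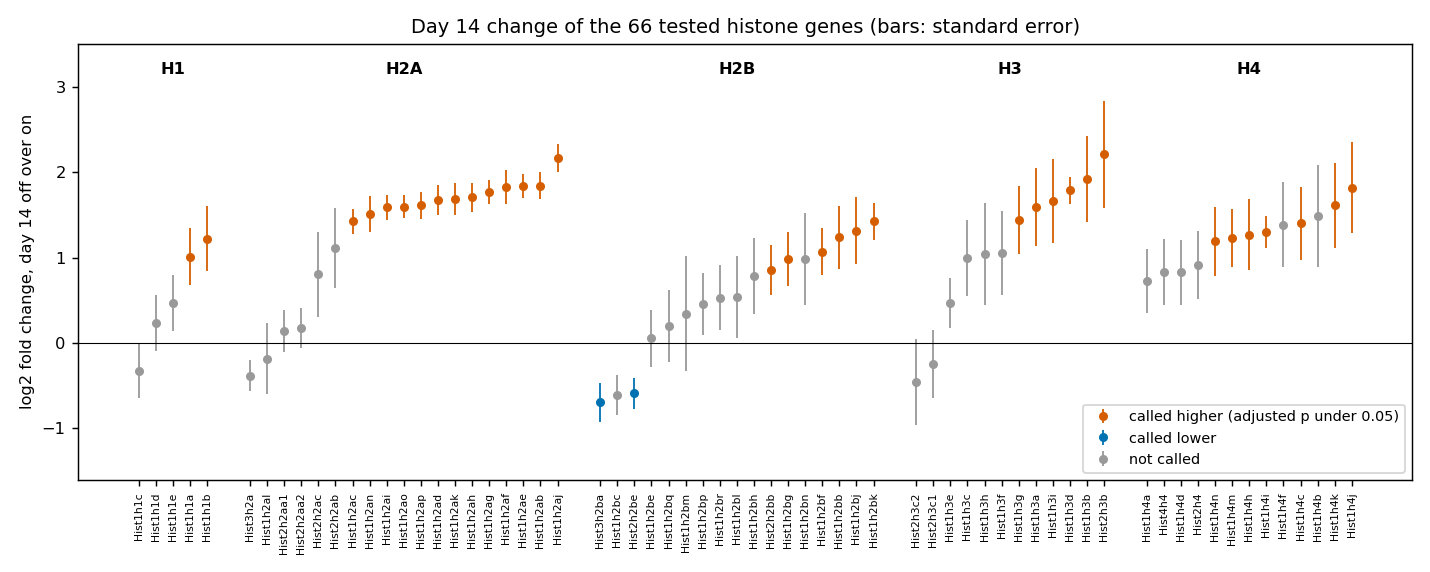
Log2 difference (day 14 off over day 14 on, y axis) of each of the 66 tested histone genes, by type, with its standard error as the bar. Of the 66, 34 were called higher and 2 lower, and the highest estimate, 2.21 for Hist2h3b, had a standard error of 0.63.

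The called count rested on both day 14 on libraries. Without day 14 on replicate 2 it was 17 higher and 1 lower, and without day 14 on replicate 1 it was 20 higher and 0 lower. The calls over all tested genes in those fits were 19.5% and 17.8%. The lower calls were 0 without day 14 off replicate 1 or 2, 1 without day 14 off replicate 4 or day 5 off replicate 2, and 4 without day 14 off replicate 3.

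H2A genes held 68.9% of all counts assigned to the 70 genes. Hist1h2ap and Hist1h2ao, H2A genes of the Hist1 cluster, alone held 17.7% and 13.6%. Hist1h2ao (ENSMUSG00000094248) stood at 222, 235, 205 and 206 CPM in the 4 day 14 off libraries, 72.5 and 71.3 CPM in day 14 on, 98.3 and 121 CPM in day 5 off, and 155 and 145 CPM in day 5 on. All 4 day 14 off libraries were above every other library, and the day 14 on libraries were the lowest. Its level at day 14 was 1.60 ± 0.14 (SE) higher on the log2 scale with the vector off (edgeR adjusted p = 4.78e-05). Hist1h2ap, its near copy, stood at 309, 307, 251 and 266 CPM in day 14 off and 93.5 and 92.0 CPM in day 14 on, a log2 difference of 1.61 ± 0.16 (SE, edgeR adjusted p = 9.47e-05). In day 5 off it was at 125 and 159 CPM and in day 5 on at 220 and 178 CPM, between both day 14 groups.

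The 13 called Hist1 H2A genes differed at day 14 by log2 1.43 to 2.16, the largest of them for Hist1h2aj, an unprocessed pseudogene (27.3, 24.5, 28.0 and 24.8 CPM off, 5.60 and 6.05 CPM on). Hist1h2ac, also of the Hist1 cluster, differed by log2 1.43 ± 0.15 (SE, edgeR adjusted p = 9.64e-05), and the pseudogene Hist1h2al was not called. Neither were the H2A genes of the other clusters: Hist2h2aa1 and Hist2h2aa2, a pair of H2A genes on chromosome 3, differed by log2 0.14 ± 0.24 and 0.17 ± 0.24 (SE, edgeR adjusted p = 0.693 and 0.613). Hist3h2a, on chromosome 11, was at 46.8, 45.3, 64.7 and 56.5 CPM off and 76.3 and 62.7 CPM on, and its groups overlapped. Its log2 difference was -0.38 ± 0.18 (SE, edgeR adjusted p = 0.136).

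The H2B genes were fewer in counts and divided. Hist1h2bk stood at 16.3, 11.3, 13.8 and 12.9 CPM in day 14 off, against 5.70 and 4.43 CPM in day 14 on, 12.9 and 11.2 CPM in day 5 off, and 15.6 and 13.8 CPM in day 5 on. The day 14 on libraries were the lowest of the 10, and the day 14 off libraries lay in the range of the day 5 ones except for replicate 1, the highest. The log2 difference at day 14 was 1.42 ± 0.22 (SE, edgeR adjusted p = 8.03e-04). The lower pair were Hist2h2be and Hist3h2ba. Hist2h2be was at 10.2, 10.6, 13.1 and 10.4 CPM off and 16.5 and 17.0 CPM on, a log2 difference of -0.59 ± 0.18 (SE, edgeR adjusted p = 0.0285). Hist3h2ba was at 5.84, 7.98, 10.5 and 9.60 CPM off and 14.4 and 13.1 CPM on, a log2 difference of -0.69 ± 0.23 (SE, edgeR adjusted p = 0.0393). Neither pair of groups overlapped. The call of Hist2h2be was lost without day 14 off replicate 1, 2 or 4 or either day 14 on library (edgeR adjusted p up to 0.131), and that of Hist3h2ba without day 14 off replicate 1 or 2 or either day 14 on library (up to 0.169). Hist1h2bc, at 13.5, 11.1, 15.4 and 12.2 CPM off and 25.2 and 14.8 CPM on, was not called (edgeR adjusted p = 0.0677), and its groups overlapped.

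Hist1h3d (ENSMUSG00000099583), the H3 gene that held 69.3% of H3 counts, stood at 59.1, 65.1, 77.3 and 62.8 CPM in day 14 off and 19.7 and 18.5 CPM in day 14 on. In day 5 off it was at 38.9 and 34.7 CPM and in day 5 on at 34.7 and 39.5 CPM. The day 14 off libraries were the 4 highest of the 10 and the day 14 on libraries the 2 lowest. The log2 difference at day 14 was 1.79 ± 0.16 (SE, edgeR adjusted p = 5.22e-05). Hist1h3a, Hist1h3b and Hist2h3b were also called, at log2 1.59 ± 0.46, 1.92 ± 0.50 and 2.21 ± 0.63 (SE), from levels no higher than 3.86 CPM. Without day 14 on replicate 2 none of these 3 was called (edgeR adjusted p = 0.111, 0.119 and 0.0726, in that order), without day 14 on replicate 1 Hist1h3a and Hist2h3b were not (0.105 and 0.151), and without day 14 off replicate 2 Hist2h3b was not (0.0571). Hist2h3c1 and Hist2h3c2 were not called (log2 -0.24 and -0.46, edgeR adjusted p = 0.678 and 0.522), nor were Hist1h3c and Hist1h3e (log2 0.99 and 0.47, adjusted p = 0.113 and 0.253). Hist2h3b lies wholly inside Gm20628, an annotated antisense gene with a mean of 96.2 counts per library, against 10.8 for Hist2h3b.

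All 13 H4 genes had every day 14 off library above both day 14 on libraries, against 27.9% of all tested genes, and 7 were called. Hist1h4i, the H4 gene with the most counts, stood at 20.9, 19.5, 22.0 and 19.1 CPM off and 9.33 and 7.23 CPM on, with 14.1 and 13.9 CPM in day 5 off and 17.0 and 12.9 CPM in day 5 on. Its log2 difference at day 14 was 1.30 ± 0.19 (SE, edgeR adjusted p = 5.76e-04). Hist1h4n was called at log2 1.19 ± 0.41 (SE, edgeR adjusted p = 0.0451), and that call was lost on leaving out any 1 of the 6 day 14 libraries. Hist4h4, the lone gene of its cluster, and Hist2h4 differed by log2 0.83 ± 0.38 and 0.91 ± 0.40 (SE) and were not called (edgeR adjusted p = 0.123 and 0.108). Hist1h4a and Hist1h4d differed by log2 0.73 and 0.83 and were not called either (adjusted p = 0.169 and 0.122).

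The 5 tested linker histone genes had a median log2 difference of 0.47. Hist1h1b was at 27.1, 28.0, 19.1 and 37.2 CPM off and 16.9 and 7.05 CPM on, a log2 difference of 1.22 ± 0.38 (SE, edgeR adjusted p = 0.0333). Hist1h1a was at 5.67, 5.78, 6.75 and 10.3 CPM off and 4.35 and 2.71 CPM on, a log2 difference of 1.01 ± 0.33 (SE, edgeR adjusted p = 0.0396). Neither pair of groups overlapped. The call of Hist1h1b was lost without day 14 off replicate 1, 2 or 4 or day 14 on replicate 2 (edgeR adjusted p up to 0.212), and that of Hist1h1a without day 14 off replicate 3 or 4 or either day 14 on library (up to 0.254). Hist1h1d and Hist1h1e were not called (log2 0.23 and 0.47, edgeR adjusted p = 0.621 and 0.316). Hist1h1c, which is known to be expressed in non-dividing cells too, was at 45.0, 40.3, 74.3 and 49.8 CPM off and 85.8 and 45.3 CPM on, and its groups overlapped (log2 -0.32 ± 0.32, SE, edgeR adjusted p = 0.481). Without day 14 on replicate 1 that value was 0.18.

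Summed over the genes of each type, H2A stood at 1104, 1078, 1046 and 1021 CPM in day 14 off and 454 and 408 CPM in day 14 on. It was at 556 and 607 CPM in day 5 off and 792 and 724 CPM in day 5 on. H3 sums were 90.1, 87.9, 103 and 89.7 CPM in day 14 off, 38.8 and 30.8 in day 14 on, 56.5 and 52.2 in day 5 off, and 56.8 and 51.1 in day 5 on. For H2A and H3 each day 14 off library was above all others and each day 14 on library below all others. H4 sums were 90.6, 68.1, 80.0 and 82.5 CPM in day 14 off and 36.8 and 34.6 CPM in day 14 on, with 51.0 and 65.1 CPM in day 5 off and 119 and 52.9 CPM in day 5 on. Day 5 on replicate 1 thus had a higher H4 sum than any day 14 off library. The day 14 off means were 2.47-fold (H2A), 2.67-fold (H3) and 2.25-fold (H4) of those in day 14 on. For H1 (1.17-fold) and H2B (1.10-fold) the day 14 groups overlapped. No test was run on these sums, since the genes were chosen with earlier results known.

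**Figure D2:**
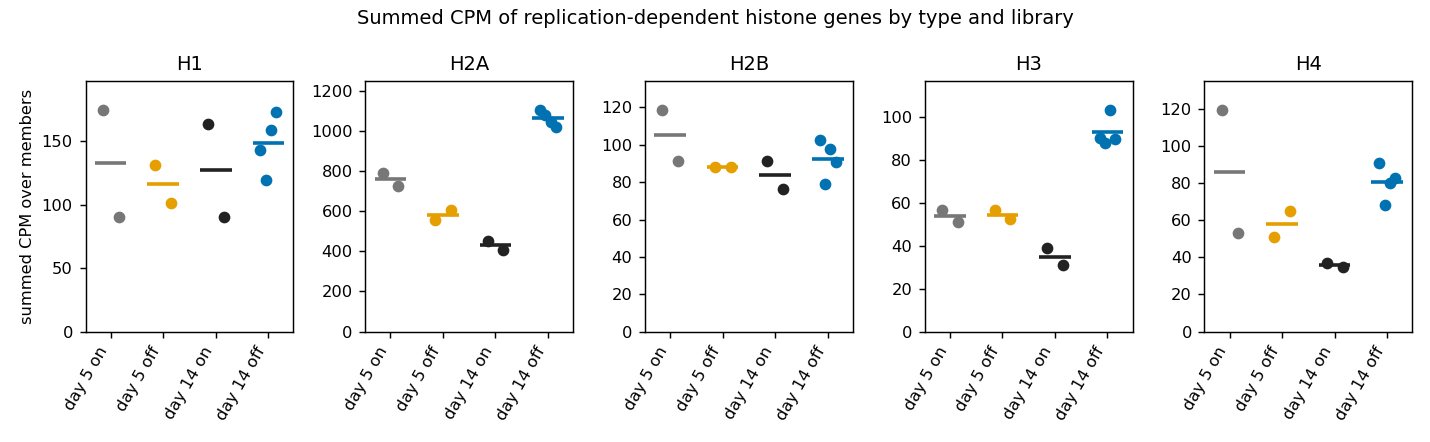
Summed CPM (y axis) over the genes of each histone type in each library (points), with the mean of each group (bars). H2A, H3 and H4 sums of the 4 day 14 off libraries lie above those of both day 14 on libraries, while H1 and H2B sums overlap.

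At day 5, none of the 66 genes was called in either direction (edgeR quasi-likelihood test), where 0.484% of all tested genes were, 0.371% higher and 0.113% lower. The median log2 difference was -0.29 over the histone genes and -0.02 over all genes. Its sign rested on day 5 on replicate 1: the histone median was 0.09 without that library and -0.46 without day 5 on replicate 2. At an unadjusted p under 0.05, 1 histone gene was higher and 11 were lower, where 7.25% of all tested genes were higher and 7.67% lower. DESeq2 called 0 higher and 1 lower, and limma voom called none in either direction. Of the 66, 16 had an estimate above 0. Estimates above 0 numbered 1 of 19 in H2A, 1 of 13 in H4 and 6 of 12 in H3, and without day 5 on replicate 1 only 3 of the 13 H4 estimates were below 0. In 12 of the 19 H2A genes both day 5 off libraries were below both day 5 on libraries, and in 21 of all 66, against 20.9% of all tested genes. In 4 of the 66 both were above, against 19.3% of all. Hist1h2ac, an H2A gene, was at 42.9 and 35.7 CPM off and 57.9 and 57.7 CPM on, a log2 difference of -0.56 ± 0.16 (SE, edgeR adjusted p = 0.154).

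Day 5 on replicate 1 stood apart from replicate 2 of its group. Its H4 sum was 119 CPM against 52.9, and its H1 sum 175 CPM against 90.3. The summed CPM of small RNAs without a poly(A) tail (small nuclear, nucleolar and Cajal body RNAs with Rmrp, Rpph1 and Rn7sk) was 2312 in it, against 1170 in replicate 2 and 1118 to 1781 in the other 8 libraries. Without it no histone gene was called at day 5, and the median log2 difference there turned from -0.29 to 0.09.

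Between day 5 and day 14 with the vector on, 15 histone genes were lower and 0 higher (edgeR quasi-likelihood test), where 2.32% of all tested genes were called, 0.968% higher and 1.36% lower. They were 13 H2A genes, Hist1h2bk and Hist1h3d. At an unadjusted p under 0.05, 1 was higher and 31 were lower, where 9.06% of all tested genes were higher and 11.4% lower. DESeq2 called 1 higher. The 13 H2A genes fell by 0.998 to 1.62 on the log2 scale. Hist1h2bk differed by log2 -1.54 ± 0.24 (SE, edgeR adjusted p = 0.0207) and Hist1h3d by -0.96 ± 0.17 (SE, edgeR adjusted p = 0.0311). No H4 gene was called. The median of the 13 H4 estimates was -1.35, and -0.61 without day 5 on replicate 1, whose H4 sum was 119 CPM against 52.9 in replicate 2. The median log2 difference over all the histone genes was -0.90, and -0.46 without day 5 on replicate 1. The count of 15 was 0 without day 14 on replicate 1, 1 without day 14 on replicate 2, 6 to 9 without day 14 off replicate 1, 2 or 4, and 0 when only the compared libraries were fitted.

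With the vector off, 14 histone genes were higher at day 14 than at day 5 and 0 were lower (edgeR quasi-likelihood test), where 17% of all tested genes were called, 10.1% higher and 6.94% lower. At an unadjusted p under 0.05, 21 were higher and 0 lower, where 17.6% of all tested genes were higher and 14.7% lower. Neither DESeq2 nor limma voom called any lower. The called genes were 13 H2A genes and Hist1h3d, which differed by log2 0.85 ± 0.15 (SE, edgeR adjusted p = 0.00456). Unlike the 13 H2A genes called with the vector on, these left out Hist1h2an and held the pseudogene Hist1h2al. Hist1h2al had the largest estimate, log2 1.76, from 4 and 3 counts in day 5 off and 11 to 16 in day 14 off. Hist1h2aj differed by log2 1.23 ± 0.15 (SE, edgeR adjusted p = 0.00137) and Hist1h2ao by 0.99 ± 0.13 (SE, edgeR adjusted p = 0.0016). The median log2 difference was 0.51. Without day 5 off replicate 1 the count was 9. In the sum of all 70 genes, the day 14 contrast thus held both lower levels with the vector on and higher with it off. Their summed CPM was 0.627-fold of day 5 in the vector on groups and 1.64-fold in the vector off groups. By type the folds were 0.568 and 1.83 for H2A, 0.645 and 1.71 for H3, and 0.414 and 1.38 for H4. For H1 they were 0.959 and 1.28, and for H2B 0.796 and 1.05. Day 5 on replicate 1 had a sum of 1261 CPM, against 1010 in replicate 2. The comparisons share libraries and are not independent of each other.

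**Figure D3:**
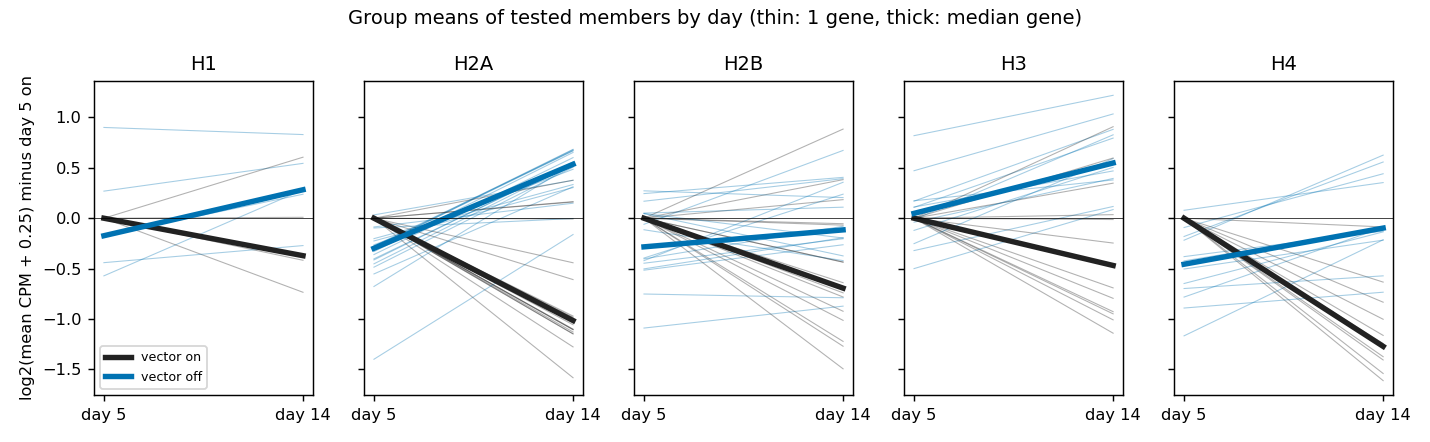
Group means on the log2(CPM + 0.25) scale, minus the day 5 on mean of the same gene (y axis), at day 5 and day 14 (x axis), for the tested genes of each type; thin lines are genes and thick lines the median gene. With the vector on, most H2A lines and the H4 lines descend to day 14, and with it off the H2A, H3 and H4 lines ascend. The day 5 on means of H4 include replicate 1, whose H4 sum was 119 CPM against 52.9 in replicate 2.

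The difference between the off effects at day 14 and day 5 was tested directly as an interaction. It was called for 16 histone genes, all with a larger off-minus-on value at day 14, where 3.06% of all tested genes were called, 1.65% higher and 1.41% lower. They were 13 Hist1 H2A genes, Hist1h2bk, Hist1h3d and Hist1h4i. The estimates were 2.05 ± 0.20 for Hist1h2ao, 1.80 ± 0.23 for Hist1h3d, 1.71 ± 0.31 for Hist1h2bk and 1.39 ± 0.27 for Hist1h4i (log2, SE), with edgeR adjusted p of 0.00106, 0.00419, 0.0253 and 0.0301. The median over all tested histone genes was 1.40, against 0.03 over all genes. That histone median was 0.95 without day 5 on replicate 1 and 1.66 without day 5 on replicate 2.

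Most H2A genes held a second annotated gene with a similar count. In 19 of the 20 H2A genes the annotation places a predicted microRNA gene on the opposite strand inside the H2A coding sequence, over 109 to 144 bases. In Hist1h2ab the count of that window gene, summed over the libraries, was 95.7% of the count of the H2A gene. In 10 H2A genes with at least 20 mean counts it was 85.0% to 97.7%, in Hist1h2ao 79.2%, in Hist1h2ap 61.9%, in Hist1h2ac 55.7%, in Hist2h2aa1 32.5% and in Hist3h2a 11.1%. Whether the counting used strand, and how it treated a read inside both genes, was not given in the sources used here, so the predicted microRNA genes cannot be told apart from the H2A genes in these counts. No gene with a mean of at least 20 counts had a count within 2% of its overlapping partner's in all 10 libraries. Some Hist2 genes are also covered in full by other annotated genes. Hist2h2bb, called higher at day 14, averaged 73.0 counts against 73.6 for the same-strand Gm42743. Hist2h2aa1 averaged 306.0 against 331.1 for the antisense Gm20633, and Hist2h2aa2 318.3 against 347.9 for the antisense Gm20632. Hist2h3b averaged 10.8 against 96.2 for the antisense Gm20628.

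**Figure D4:**
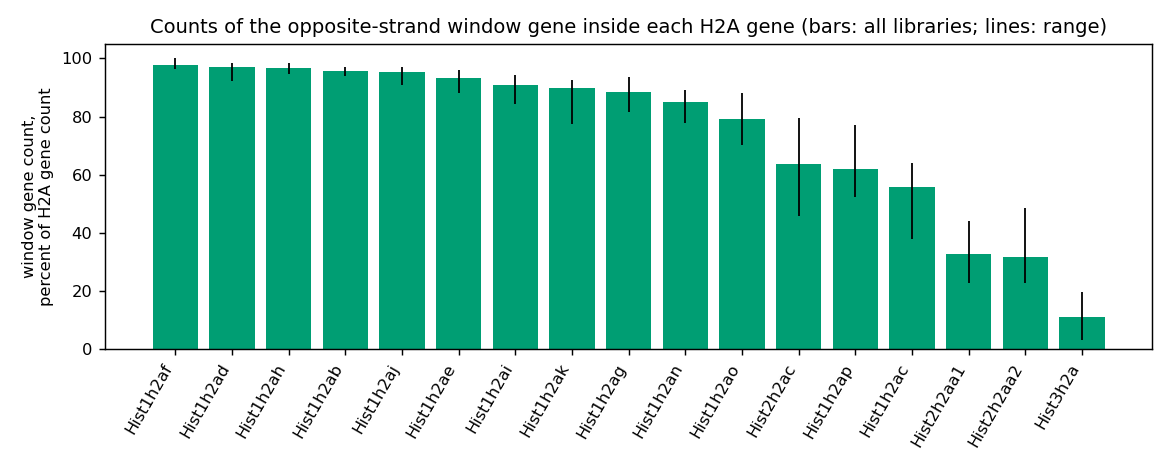
Count of the opposite-strand window gene as a percent of the count of the H2A gene around it (y axis), summed over the libraries, for 17 H2A genes with a mean of at least 20 counts; lines span the lowest and highest library. The Hist1 genes lie above 55% and Hist3h2a lies at 11.1%.

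The windows of Hist1h2ab and Hist3h2a, from opposite ends of that range, are shown on the strand of the H2A gene, with the bases that differ between them in capitals. They lie in mm10 at chr13:23751378-23751515, plus strand and chr11:58954983-58955120, plus strand. They differ at 2 of 138 bases (98.6% identity).
Hist1h2ab: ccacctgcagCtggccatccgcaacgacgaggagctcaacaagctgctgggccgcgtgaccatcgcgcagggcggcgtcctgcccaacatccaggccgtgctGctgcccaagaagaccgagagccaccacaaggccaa
Hist3h2a: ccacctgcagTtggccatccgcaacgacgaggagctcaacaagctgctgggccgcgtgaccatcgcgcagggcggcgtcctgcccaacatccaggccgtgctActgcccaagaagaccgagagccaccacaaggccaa

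The window of Hist1h2ab was identical in 7 other H2A genes. Of the 75-base stretches of the annotated transcripts, 92.6% of those of Hist1h2ap, 93.1% of Hist1h2ao and 55.4% of Hist1h2ab occurred in another histone gene of the list, and in 28 of the 70 genes at least 50% did. The counts of such copies are uncertain and their calls are not independent of each other. Among the 38 tested genes under that share, 15 were higher and 2 lower at day 14, with a median log2 difference of 0.95. Among the 41 tested genes with no overlapping annotated gene, 19 were higher and 2 lower, where 16.9% of all tested genes were higher and 14.9% lower. Between the days with the vector on, 4 of those 38 and 2 of those 41 were called lower, as were 1.36% of all tested genes. With the vector off, 5 of those 38 and 1 of those 41 were called higher, where 10.1% of all tested genes were. Hist1h3d and Hist1h4i shared 22.1% and 22.4%, and no annotated gene overlaps either. Hist1h2bk shared 72.6%.

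Hist3h2a showed the window and the rest of 1 gene going apart. Its window stood at 9.14, 8.35, 8.81 and 7.53 CPM in day 14 off, 2.28 and 2.62 CPM in day 14 on, 3.20 and 4.71 CPM in day 5 off, and 6.18 and 6.38 CPM in day 5 on. Every day 14 off library was above every other, and the log2 difference at day 14 was 1.78 ± 0.25 (SE, edgeR adjusted p = 5.14e-04). The remaining counts of the gene, taken as its count minus the window's, stood at 37.7, 37.0, 55.9 and 48.9 CPM in day 14 off, 74.0 and 60.1 CPM in day 14 on, 43.7 and 48.3 CPM in day 5 off, and 55.4 and 38.9 CPM in day 5 on. The day 14 on libraries were the highest of the 10, and the day 5 libraries lay within the day 14 off range. The day 14 off mean was 0.669-fold of that in day 14 on. The subtraction assumes that each read of the window was also counted for Hist3h2a. Hist3h2a lies wholly within the span of Trim17 on the same strand. The mean count per library was 640.1 for Hist3h2a and 166.6 for Trim17. Whether reads of Trim17 transcripts were also counted for Hist3h2a was not given.

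**Figure D5:**
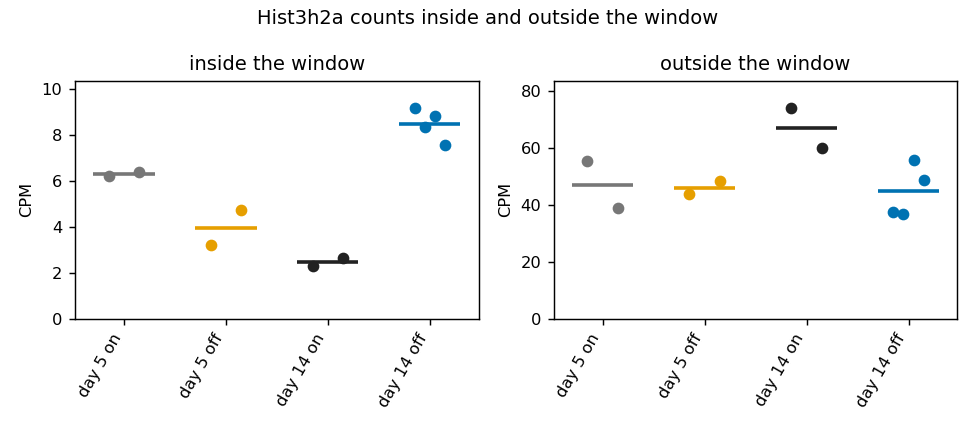
CPM (y axis) of the Hist3h2a window gene (left) and of the Hist3h2a count minus the window count (right) in each library (points), with group means (bars). Inside the window the 4 day 14 off libraries lie above both day 14 on libraries, and outside it they lie below.

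In Hist1h2ac, the window was 3.63-fold and the remaining counts 1.95-fold of day 14 on. In Hist2h2aa1 and Hist2h2aa2 the window was 1.60-fold in each and the remaining counts 0.952-fold and 0.978-fold. In Hist1h2ap they were 3.29-fold and 2.75-fold.

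Grouped by 3′ end at day 14, genes with a poly(A) signal after the stem-loop gave 5 higher and 1 lower of 16 tested, with a median log2 difference of 0.81. Genes with a stem-loop and no such signal after it gave 17 higher and 0 lower of 29, with a median of 1.24. Genes with no stem-loop match gave 12 higher and 1 lower of 21, with a median of 1.12. These classes were defined after the values were seen, and the difference between them was not tested. By cluster, Hist1 gave 32 higher and 0 lower of 53, Hist2 gave 2 and 1 of 10, Hist3 gave 0 and 1 of 2, and Hist4 gave neither of 1. The shares over all tested genes at day 14 were 16.9% higher and 14.9% lower, and Hist2 lay near them.

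Of 180 tested small RNAs without a poly(A) tail, 65 were higher with the vector off at day 14 and 3 were lower. The shares over all tested genes were 16.9% and 14.9%. The median log2 difference over the small RNAs was 1.12. With the vector on, the median between the days was -0.73, with it off 0.44, and at day 5 the off-minus-on median was -0.18. The histone medians in the same order were 1.09, -0.90, 0.51 and -0.29. Without day 5 on replicate 1, which had the highest small RNA sum, the vector on and day 5 medians were -0.23 and 0.22 over 215 tested small RNAs and -0.46 and 0.09 over the histone genes. The part of tail-less RNA capture in the histone values was not tested. Ribosomal RNA took 7.78% to 16.5% of counts in day 14 off and 13.3% to 15.01% in day 14 on.

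Of 28 genes of the G1/S transition and replication, 26 were higher and 0 lower with the vector off at day 14. Their median log2 difference was 1.16. Among all tested genes, 16.9% were higher and 14.9% lower. Rrm2, a subunit of ribonucleotide reductase, was at 60.5, 60.5, 57.8 and 63.2 CPM off and 20.5 and 17.8 CPM on (log2 1.66 ± 0.14, SE, edgeR adjusted p = 4.78e-05). The summed CPM of the 28 was 3091 to 3811 in day 14 off, 1504 and 1585 in day 14 on, 1888 and 2165 in day 5 off, and 1579 and 2133 in day 5 on. At day 5 none of the 28 was called, and between the days 2 were lower with the vector on and 15 higher with it off. The shares over all tested genes were 0.484% called at day 5, 1.36% lower (vector on) and 10.1% higher (vector off). The part of the 28 genes in the histone values was not tested.

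Of 21 genes of histone transcription and 3′ end processing, 12 were higher and 0 lower at day 14, with a median log2 difference of 0.46. Among all tested genes, 16.9% were higher and 14.9% lower. Slbp, which binds the stem-loop, was at 165, 168, 141 and 154 CPM off and 70.5 and 70.9 CPM on (log2 1.15 ± 0.15, SE, edgeR adjusted p = 3.42e-04). Ccne1, the cyclin whose kinase activates Npat, was at 36.7, 37.2, 31.7 and 31.4 CPM off and 4.56 and 4.52 CPM on (log2 2.91 ± 0.21, SE, edgeR adjusted p = 2.87e-05). Npat, the coactivator of histone transcription, and Casp8ap2, a component of histone locus bodies, were not called (log2 0.32 and 0.09, edgeR adjusted p = 0.235 and 0.750). Of 18 histone chaperone genes, 9 were higher and 0 lower, among them Chaf1a, a subunit of the assembly factor CAF-1 (log2 1.27 ± 0.19, SE, edgeR adjusted p = 7.00e-04).

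Histone genes listed here as replication-independent divided. Of 10 tested, 3 were higher and 3 lower at day 14, where 16.9% of all tested genes were higher and 14.9% lower. H2afz (log2 0.90), H2afx (0.68) and the centromeric Cenpa (1.17) were higher. H2afy (-1.52), which encodes macroH2A, H2afy2 (-3.64) and H3f3a (-0.50), a gene of H3.3, were lower. H2afy was at 154, 141, 179 and 141 CPM off and 475 and 408 CPM on (edgeR adjusted p = 1.15e-04). H2afy2 was at or under 1.63 CPM in these 6 libraries.

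Markers of other cell types were counted in the same way, where 16.9% of all tested genes were higher at day 14 and 14.9% lower. Of 12 erythroid genes, 7 were higher and 0 lower at day 14, and their summed CPM was 3696 to 4970 in day 14 off and 1607 and 2249 in day 14 on. Of 8 granulocyte genes 0 were higher and 2 lower, with sums of 92.9 to 126 CPM against 423 and 153. Of 5 monocyte genes 3 were lower, with sums of 32.3 to 49.6 CPM against 75.9 and 47.2. Of 6 lymphoid genes 3 were tested and 1 was lower, with sums of 18.6 to 39.7 CPM against 30.4 and 42.8. No gene of these lists was at 0 in every library. Kit, the positive sort marker, was at 36.1, 34.6, 30.9 and 36.4 CPM off and 88.9 and 98.1 CPM on (log2 -1.44 ± 0.12, SE, edgeR adjusted p = 4.78e-05). Itgam, which encodes Cd11b, also differed (log2 -2.28 ± 0.56, SE, edgeR adjusted p = 0.0121). The part of these cell types in the histone values was not tested.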

How the data were processed

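RNA was measured in 10 libraries of sorted mouse leukaemia cells. Per the labels' protocols, polyA RNA libraries were made with a QuantSeq 3′ kit and sequenced as single-end reads. The submitters' processing notes list, for build mm10, the aligner HISAT2 2.0.4, the counter featureCounts of Subread 2.0.0, the trimmer cutadapt 1.14 and, for later steps, edgeR 3.34.0 with limma 3.48.3. Strand, multi-mapping and annotation settings: not given in the sources used here. Values in the table that the authors deposited are raw counts for 52636 Ensembl genes, of which 52489 matched GENCODE M21 by ID.

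Groups came from the sample titles. Counts were fitted with edgeR 4.0.16 in R 4.3.3 (TMM scaling, filterByExpr, robust quasi-likelihood fit and test over all 10 libraries and 4 groups, Benjamini-Hochberg adjustment over 15916 genes, threshold 0.05). DESeq2 1.42.0 and limma 3.58.1 were alternatives, beside RLE scaling, other filters, a minimum fold of 2, thinned counts, a replicate block, subsets of genes and leaving out each library. CPM are counts scaled to TMM-adjusted library sizes. On simulated counts with 100 genes changed at each fold, the day 14 test recovered 36% of genes changed 2-fold and 81% of those changed 4-fold (of 15549 genes), and the day-dependence test 0% and 54% (of 15542). A count of 0 in a library allows up to 0.209 to 0.323 CPM, counting error only. The histone genes, the other gene lists and the tests were chosen with earlier results of these data known. The check of Dnmt3a and the medians by type without each library were added after the data were seen. Genes were named by level (the 4 highest of each type), by cluster, by known distinct expression, by the largest changes at day 14 and by smallest p in the other comparisons. Genes named outside that rule, among them Hist1h2ab beside its window, were chosen after their values were seen. Sequences came from GENCODE transcripts and RefSeq promoter windows, and stretches of 75 bases were compared between transcripts.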

Additional observations from a re-analysis of the deposited data

Results flagged for a closer look

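Across 40 sets of 4 day 14 off values, the gap of 1 library to its nearest neighbour was checked against Dixon's 95% critical value, which chance passes in about 1 of 20 sets. Day 14 off replicate 3 stood apart for Hist2h2be (gap 0.858 of the range, 13.1 CPM against 10.2 to 10.6) and for the H3 sum (gap 0.848 of the range, 103 CPM against 87.9 to 90.1).

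The off effect at day 14 differed from that at day 5 by the interaction test in 16 genes. On the log2 scale the difference was 2.85 for Hist1h2aj, 2.25 for Hist1h2ab, 2.1695 for Hist1h2af, 2.13 for Hist1h2ag, 2.11 for Hist1h2ae, 2.10 for Hist1h2ap and 2.05 for Hist1h2ao. It was 2.01 for Hist1h2ai, 1.996 for Hist1h2ah and Hist1h2ak, 1.98 for Hist1h2ac, 1.97 for Hist1h2ad and 1.48 for Hist1h2an. Outside H2A it was 1.80 for Hist1h3d, 1.71 for Hist1h2bk and 1.39 for Hist1h4i. The 13 H2A genes share near-identical stretches, so these are not 16 independent results. Hist1h2bk shared 72.6% of its 75-base stretches with other histone genes of the list, Hist1h3d 22.1% and Hist1h4i 22.4%.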

How the results depend on the processing

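The day 14 counts of 34 higher and 2 lower became 13 and 0 with a minimum fold of 2, 15 higher among genes that share under 50% of their 75-base stretches (chosen after seeing the data), and 19 higher among genes with no overlapping gene. Over all tested genes 31.8% were called at day 14 in the main fit and 6.33% with the minimum fold. Leaving out 1 library gave 17 to 38 higher and 0 to 4 lower. For the vector on comparison of days, the 15 lower became 0 with a minimum fold of 2, 0 with only the compared groups, 4 and 2 in those gene subsets, 23 without a filter, and 0 to 20 on leaving out 1 library, and DESeq2 called 1 higher. For the vector off comparison, the 14 higher became 0, 5 and 1 under the minimum fold and the subsets, and 9 to 16 on leaving out 1 library. Those subsets held 38 and 41 tested genes, and 10.1% of all tested genes were higher in the main fit. The 16 day-dependent genes became 8, 5 and 3 in the same settings, and 13 to 21 on leaving out 1 library. With the minimum fold, 0.949% (vector off) and 0.188% (day dependence) of all tested genes were called. At day 5, 1 was higher and 1 lower without a filter, and DESeq2 called 1 lower, where 3.42% and 3.28% of all tested genes were called. Leaving out 1 library gave 0 for all other counts.

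With a replicate block, day 14 gave 26 higher and 4 lower, the day comparisons gave 18 lower (vector on) and 13 higher (vector off), and day dependence gave 17 higher and 1 lower. Over all tested genes that fit called 32.6%, 6.37%, 19.1% and 9.56%, in the same order. Deviations of same-numbered libraries correlated at 0.0295 to 0.334, and the labels name no pairing, so the numbers were not taken to pair libraries.

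On leaving out 1 library the day 14 log2 difference ranged from -0.71 to 0.18 for Hist1h1c, from -0.11 to 0.42 for Hist2h2aa1 and from -0.0066 to 0.35 for Hist2h2aa2. The sign changed without day 14 on replicate 1 for Hist1h1c and without day 14 on replicate 2 for both H2A genes. None of these 3 was called. Of the other day 14 values of named genes under an alternative, 506 kept direction and side of the threshold, 48 lost a call and 14 gained one. No ratio of summed CPM moved past the spread between libraries under the scalings run. No H2A ratio without overlapping genes exists, since every tested H2A gene has one. With 2 libraries in 3 of the groups, and 18 genes under 20 mean counts, small differences were not detectable at this depth.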
